A study of Mus musculus with 18 samples.

Results

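The apicobasal polarity complexes of the embryonic mouse lung were followed through 10 genes. *Scrib*, *Dlg1*, *Llgl1* and *Llgl2* belong to the Scribble module, *Pard3*, *Pard6b*, *Prkci* and *Prkcz* to the Par module, and *Crb3* and *Mpp5* to the Crumbs module. They were chosen by name as core members of these modules, and all 10 were found among the 23420 gene names of each experiment. Bulk RNA-Seq had been carried out on whole embryonic lungs in 3 experiments of 6 libraries, 3 from mutants and 3 from their own controls. In the Vangl1/2 experiment at stage E12.5dpc (days post coitus), mutants were Vangl1-/-; Vangl2-/- and controls Vangl1-/-, so that both groups lacked *Vangl1*, which the study removed with a gene-trap allele, and differed in *Vangl2*, which it deleted throughout the embryo with Sox2-Cre. In the Dermo1Cre experiment at E12.5dpc, mutants were *Wnt5a* f/f; Dermo1Cre and controls *Wnt5a* f/+; Dermo1Cre. In the Sox9Cre experiment at E13.5dpc, mutants were *Wnt5a* f/f; Sox9Cre and controls *Wnt5a* f/+; Sox9Cre. Each of these *Wnt5a* controls therefore carried Cre and 1 floxed allele. Dermo1-Cre acts in the lung mesenchyme and Sox9-Cre in the distal epithelium, where its activity begins only after early branching has started, so *Wnt5a* in the cells outside each Cre domain was not targeted. The labels do not say how many embryos went into a library, nor whether replicates were separate litters, and p-values measure only the spread between these libraries.

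Epithelial cells have an apical face toward the lumen and a basolateral face toward their neighbors and the matrix. The Crumbs and Par modules mark the apical side and the apical junction, and the Scribble module marks the lateral side. The atypical protein kinase C of the Par module phosphorylates Lgl proteins and keeps them off the apical membrane, whereas Scribble module proteins keep apical proteins out of the lateral domain. This axis differs from planar cell polarity, which runs within the plane of a tissue and needs *Vangl1* and *Vangl2*. *Scrib* belongs to both, since its protein binds that of *Vangl2* and its loss in mice disturbs planar polarity.

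Between 15945393 and 19814346 reads per library lay on genes. Values are given as normalized counts, which are reads divided by a size factor of the library. Genes entered the test at 10 normalized counts or more in 3 or more libraries of an experiment, and all 10 polarity genes entered it in every experiment. Each mutant group was compared with its controls by limma, and adjusted p-values are Benjamini-Hochberg values over all genes tested, with a threshold of 0.05. *Vangl2* checked the labels of the first experiment, with 277, 406 and 334 normalized counts in the controls and 86.5, 79.8 and 89.6 in the mutants (log2 fold change -1.96, SE 0.17, adjusted p = 0.0318). *Wnt5a* stood at 472, 430 and 490 in the Dermo1Cre controls and 317, 436 and 230 in the mutants (log2 fold change -0.55, SE 0.19, adjusted p = 0.406), with mutant replicate 2 inside the range of the controls. In the Sox9Cre experiment *Wnt5a* stood at 473, 453 and 426 in controls and 442, 362 and 448 in mutants, which overlapped (log2 fold change -0.12, SE 0.097, adjusted p = 0.9999). The counts for *Vangl1*, whose alleles were the same in both groups of the Vangl1/2 experiment, were 165 ± 52.8 in controls and 252 ± 19.5 in mutants (SD, n = 3, adjusted p = 0.233). All 12 epithelial markers, among them *Cdh1*, *Epcam* and *Nkx2-1*, were tested in each experiment, with control means from 430 to 3319 normalized counts, and all 10 mesenchymal and all 6 endothelial markers were tested as well. In RNA from a whole lung, fewer epithelial cells and less RNA per epithelial cell cannot be told apart.

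The 10 genes were all expressed, at levels that ranged over more than a factor of 10 within a library. Levels of different genes were compared as RPKM, which are reads per kb of exon scaled to a common number of reads on genes, using the joined exons of each gene in the GRCm38 annotation. *Llgl1* had the highest mean in each of the 6 groups and *Prkcz* the lowest. In Dermo1Cre controls, *Llgl1* lay at 30.9 ± 1.502 and *Prkci* at 30.8 ± 2.13, and the ranges of this pair overlapped (SD, n = 3 in all groups). *Scrib* followed at 21.3 ± 1.46 and *Dlg1* at 16.5 ± 0.599, each apart from its neighbors. *Pard3* at 12.7 ± 0.369 and *Mpp5* at 12.3 ± 0.516 overlapped. *Crb3* came next at 8.67 ± 0.710, then *Llgl2* at 7.17 ± 0.0461, *Pard6b* at 6.15 ± 0.0808 and *Prkcz* at 2.40 ± 0.0699, with no overlap between neighbors. This order of the means was the same in Sox9Cre controls, with *Llgl1* at 32.7 ± 1.51 and *Prkcz* at 2.33 ± 0.217, although *Llgl2* at 7.02 ± 0.233 and *Pard6b* at 6.96 ± 0.389 overlapped there. *Crb3* stood higher in the order in Vangl1/2 controls. Its level of 11.9 ± 2.36 lay between those of *Dlg1* at 14.4 ± 2.998 and *Pard3* at 11.1 ± 1.54, and the ranges of *Dlg1*, *Crb3*, *Pard3* and *Mpp5* overlapped in turn. In Vangl1/2 mutants *Crb3* was again below *Pard3* and *Mpp5*, at 9.64 ± 0.847. By library, *Crb3* stood at 14.2, 9.52 and 12.1 in Vangl1/2 controls and at 9.70, 8.77 and 10.5 in mutants, so control replicate 2 lay among the mutants. Its exons, 1564 bases, were the shortest of the 10, and the part of exon length in this order was not tested. The size factors do not enter RPKM, and the levels of different experiments stand side by side without a test.

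**Figure D1:**
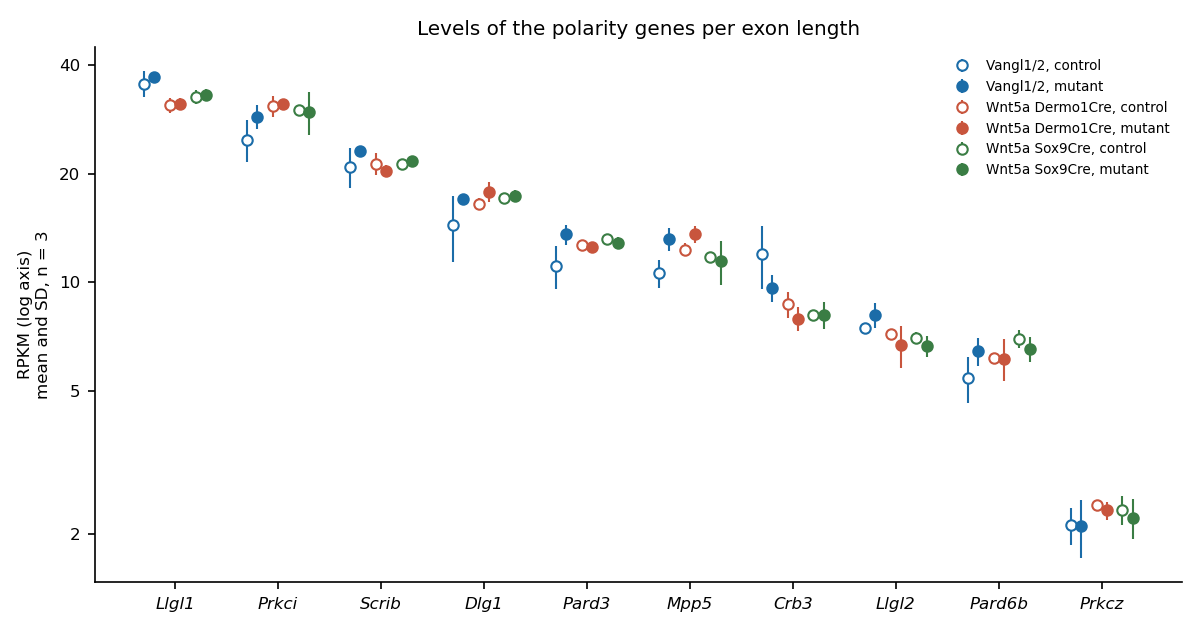
Levels of the 10 polarity genes in RPKM (reads per kb of exon at a common depth), on a log axis, as mean and SD of 3 libraries in each group. Open points are controls, filled points are mutants, and colors mark the experiments. Llgl1 is highest in all 6 groups and Prkcz lowest, at 2.10 to 2.40 RPKM.

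For both pairs of paralogs the share of each partner could be followed within a library, where scaling cancels. *Prkci* and *Prkcz* encode the iota and zeta forms of atypical protein kinase C. Per kb, *Prkci* held 92.1% ± 0.874 of the pair in Vangl1/2 controls and 93.2% ± 1.11 in mutants (SD, n = 3). Its share was 92.8% ± 0.272 in Dermo1Cre controls and 93.1% ± 0.207 in mutants, and in the Sox9Cre experiment 92.8% ± 0.698 and 93.0% ± 0.963. *Llgl1* and *Llgl2* encode the Lgl proteins, and *Llgl2* held the smaller share, 17.4% ± 1.07 in Vangl1/2 controls and 17.9% ± 1.24 in mutants. Its share was 18.8% ± 0.800 against 17.5% ± 1.45 in the Dermo1Cre experiment and 17.7% ± 0.799 against 16.7% ± 0.688 in the Sox9Cre experiment. The log2 ratio of *Llgl2* to *Llgl1* normalized counts was lower in the mutants by 0.13 in the Dermo1Cre and by 0.10 in the Sox9Cre experiment. None of the 6 ratios passed a two-sided exact permutation test of mutants against controls, with p from 0.3 to 0.8 and adjusted values from 0.6 to 0.8, where 3 libraries against 3 allow no p under 0.1.

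No polarity gene passed the adjusted threshold in any experiment. The count was 0 of 10 by limma and by edgeR in each experiment and 0 by DESeq2, which gave an adjusted p to 6 of the 10 in the Vangl1/2 experiment and to all 10 in the others. Over all genes tested, limma called 0.00699% in the Vangl1/2, 0.014% in the Dermo1Cre and 0% in the Sox9Cre experiment, edgeR the same shares, and DESeq2 0.184%, 0.751% and 0.063% of the genes to which it gave an adjusted p. At an unadjusted p under 0.05 limma passed 2 polarity genes in the Vangl1/2 experiment, *Pard3* and *Mpp5*, both higher, against 20.5% of all genes in either direction and 12% higher. It passed *Mpp5* alone in the Dermo1Cre experiment, as higher, against 10.2% of all genes in either direction and 5.42% higher. It passed none in the Sox9Cre experiment, against 1.08% higher and 2.81% lower, or 3.9% of all genes. The median log2 fold change of the 10 genes was 0.15 in the Vangl1/2 experiment, beside -0.0093 over all genes tested, and 8 of the 10 lay above 0, as did 48.8% of all genes. It was -0.023 beside 0.00071 in the Dermo1Cre experiment and -0.029 beside 0.0013 in the Sox9Cre experiment, with 4 of 10 above 0 in each, where 50.3% and 50.7% of all genes lay above 0.

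**Figure D2:**
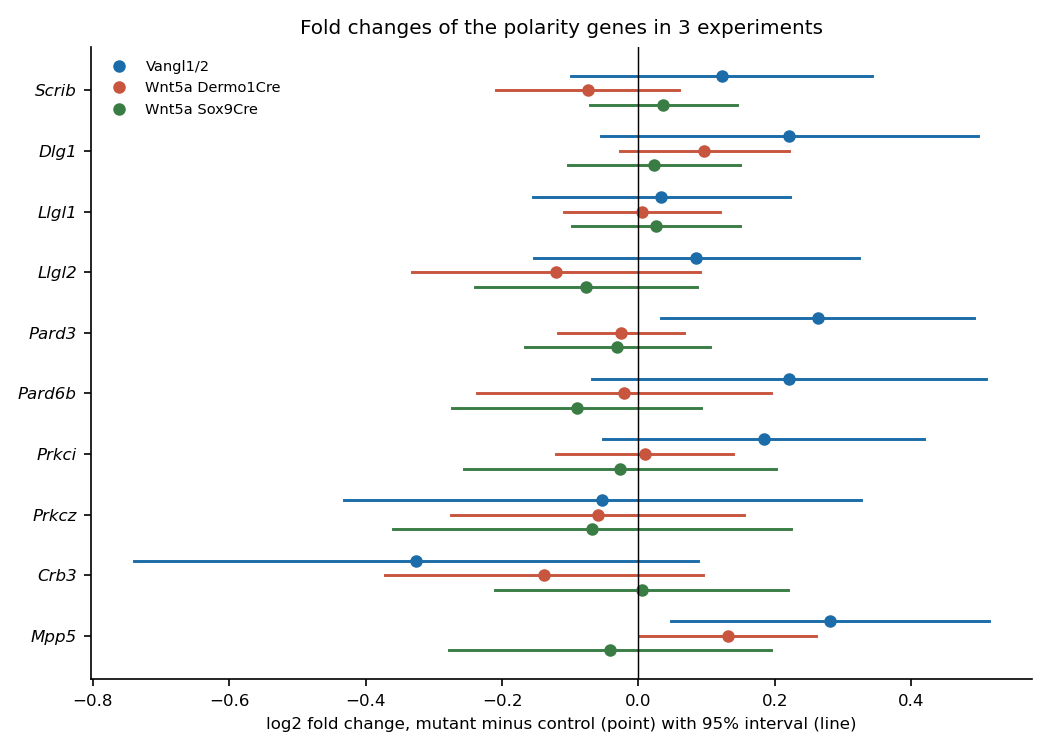
Log2 fold change of each polarity gene, mutant minus control, as a point with its 95% interval from limma, in the 3 experiments (3 libraries per group). In the Vangl1/2 experiment the intervals of Pard3 and Mpp5 lie above 0 before adjustment, and in the Dermo1Cre experiment that of Mpp5 does by 0.00074. All other intervals include 0, and those of the Vangl1/2 experiment are the widest for every gene but Mpp5.

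Of the Vangl1/2 values, the 2 that passed before adjustment were those of a Par and a Crumbs gene. *Pard3*, a scaffold with PDZ domains that recruits Par6 and atypical protein kinase C to the apical junction (chr8:127063893-127612286, plus strand), had 1757, 2079 and 1806 normalized counts in controls and 2170, 2204 and 2383 in mutants. The groups did not overlap, as was true with the mutant higher for 13.6% of all genes and with the mutant lower for 8.68%, and the log2 fold change was 0.26 (SE 0.10, 95% interval 0.033 to 0.49, adjusted p = 0.233). *Mpp5*, also known as Pals1, is the adaptor that ties Crumbs to the cytoplasmic scaffold *Patj* (chr12:78748907-78840714, plus strand). Its counts were 1028, 1149 and 1205 in controls and 1355, 1289 and 1462 in mutants, again without overlap (log2 fold change 0.28, SE 0.10, 95% interval 0.047 to 0.51, adjusted p = 0.233).

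*Crb3*, the main Crumbs protein of mammalian epithelia, had the lowest fold change of the 10 (chr17:57059105-57065918, plus strand). Its counts were 439, 275 and 381 in Vangl1/2 controls and 292, 260 and 307 in mutants. Control replicates 1 and 3 were above all mutants and control replicate 2 lay among them, and the log2 fold change was -0.33 (SE 0.18, 95% interval -0.74 to 0.087, adjusted p = 0.304). The 2 Crumbs genes thus lay at opposite ends of the members' fold changes, with 1564 exon bases for *Crb3* and 5470 for *Mpp5*. With the trend on exon length removed, as described below, the ends were instead *Prkcz* (-0.22) and *Pard6b* (0.21).

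The remaining Par genes did not separate the groups. *Pard6b*, whose protein joins atypical protein kinase C to *Cdc42* (chr2:168081004-168101203, plus strand), had 364, 390 and 316 counts in controls and 401, 456 and 387 in mutants (log2 fold change 0.22, SE 0.13, adjusted p = 0.315). *Prkci* (chr3:30995747-31052959, plus strand) had 2121, 2498 and 2190 in controls and 2556, 2405 and 2766 in mutants (0.18, SE 0.10, adjusted p = 0.307). For both genes 2 of 3 mutants lay above all controls. *Prkcz* (chr4:155260129-155361361, minus strand) had 213, 205 and 179 in controls and 155, 207 and 218 in mutants, which spanned the controls (-0.053, SE 0.16, adjusted p = 0.863).

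Nor did the Scribble module separate them. *Dlg1*, a scaffold of the MAGUK family (chr16:31663443-31875129, plus strand), had 1836, 2427 and 1886 counts in controls and 2349, 2362 and 2402 in mutants. Only control replicate 2 kept its groups from separating, and this control was above all 3 mutants (log2 fold change 0.22, SE 0.12, adjusted p = 0.299). *Scrib*, a scaffold with leucine-rich repeats and PDZ domains (chr15:76047158-76069784, minus strand), had 2335, 2440 and 2065 in controls and 2502, 2547 and 2379 in mutants (0.12, SE 0.10, adjusted p = 0.453). *Llgl1* (chr11:60699723-60714186, plus strand) had 2996, 3149 and 2951 in controls and 3088, 3155 and 3064 in mutants (0.034, SE 0.082, adjusted p = 0.820), which is a change of 2.35% in the mean on this scale. It shares 44 exon bases, 1% of its exons, with *Flii* on the opposite strand, and none of the other 9 shares exon sequence with another gene. *Llgl2* (chr11:115824049-115855780, plus strand) had 510, 511 and 554 in controls and 539, 529 and 604 in mutants (0.085, SE 0.10, adjusted p = 0.631).

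**Figure D3:**
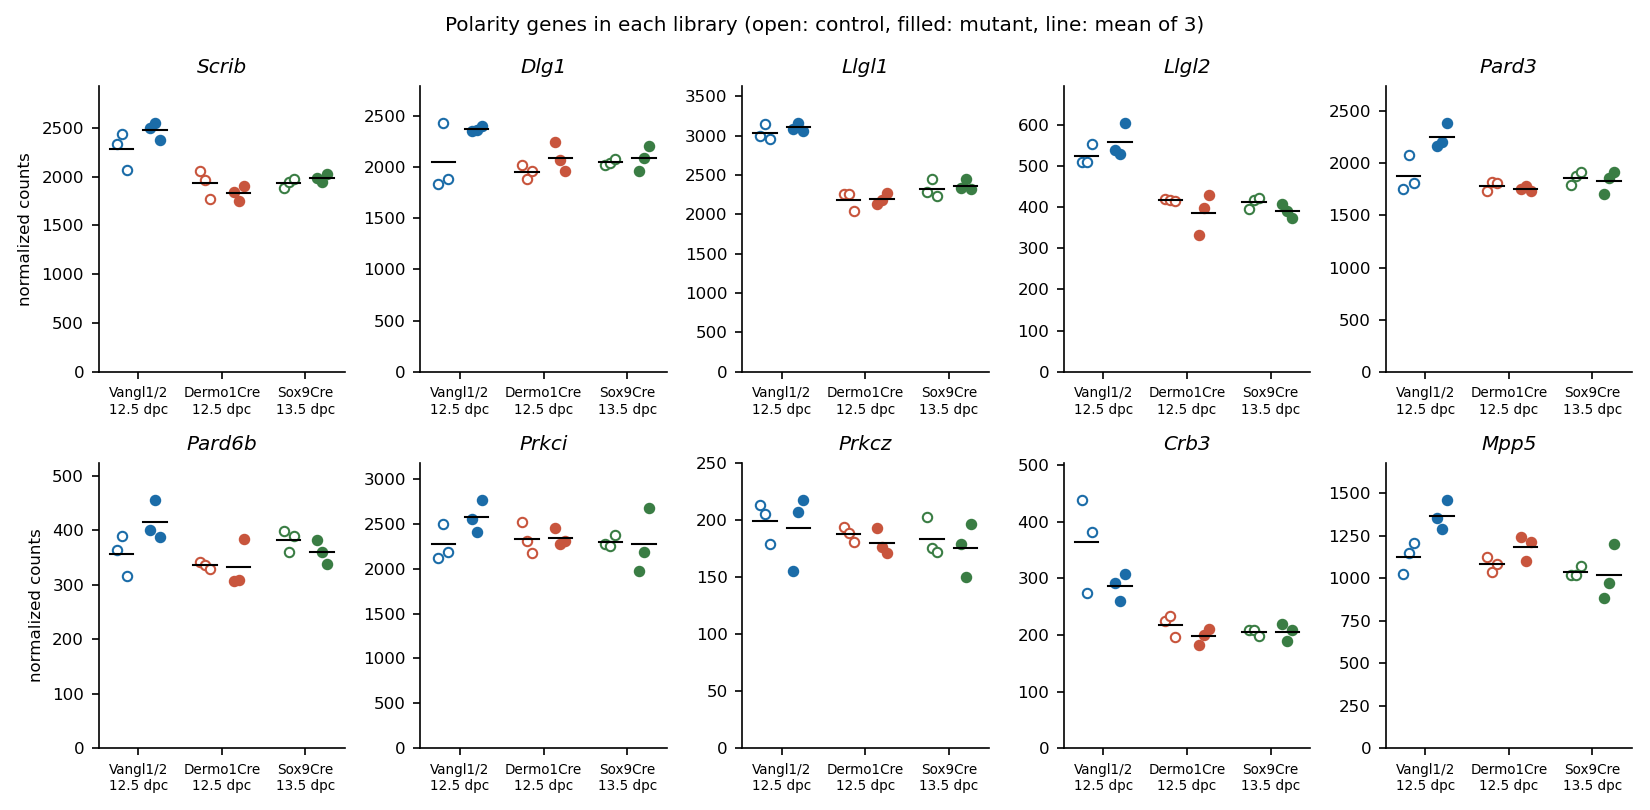
Normalized counts of each polarity gene in all 18 libraries, with 1 panel per gene and axes that start at 0. Open points are controls, filled points are mutants, and a line marks the mean of 3. Pard3 and Mpp5 in the Vangl1/2 experiment are the only panels in which mutants and controls do not overlap, and 1 Vangl1/2 control lies far from the other 2 for Dlg1 and Crb3.

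The Vangl1/2 fold changes moved with gene length and with 1 library. Over 14183 genes tested that had a known length, the Spearman correlation of the Vangl1/2 fold change with exon length was 0.702 across genes, which are not independent replicates, against 0.254 in the Dermo1Cre and -0.031 in the Sox9Cre experiment. The slope of log2 values on the log2 of exon length, centered over the 6 libraries, was -0.18 in control replicate 1, 0.066 in control replicate 2 and -0.21 in control replicate 3, and 0.094, 0.092 and 0.14 in the mutants. Control replicate 2 thus had the sign of the mutants, whereas its *Vangl2* count of 406 was the highest of the 6. The polarity genes were long, with a median of 4778 exon bases against 2693 over all genes with a length. *Pard3* had the longest exons at 8747 bases and *Crb3* the shortest at 1564. With each library's length trend removed, the median of the 10 genes was -0.085, 4 of the 10 lay above 0 and none passed the adjusted threshold. *Pard3* then stood at -0.13 (adjusted p = 0.691), *Mpp5* at 0.064 (adjusted p = 0.869) and *Crb3* at -0.081 (adjusted p = 0.869), while *Pard6b* kept 0.21 (adjusted p = 0.599). *Prkcz* went from -0.053 to -0.22 (adjusted p = 0.667).

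**Figure D4:**
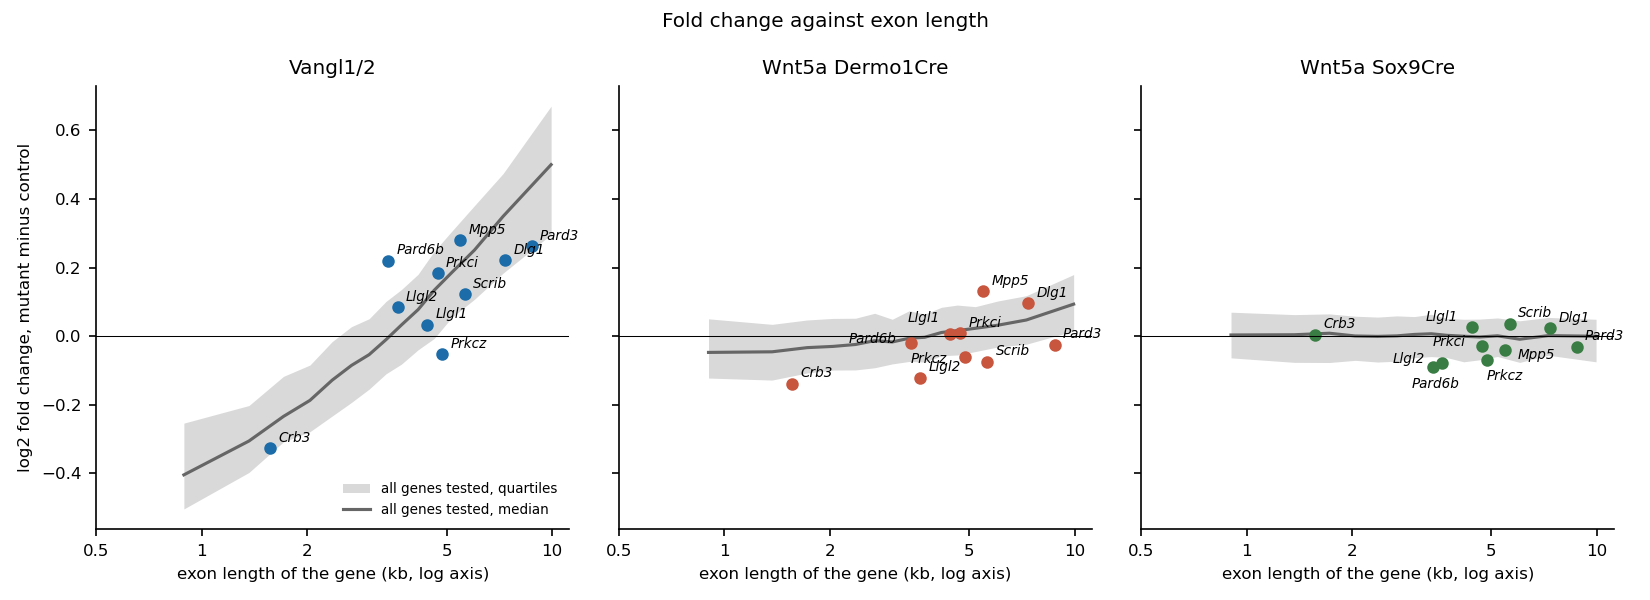
Log2 fold change, mutant minus control, against exon length in kb on a log axis, in the 3 experiments. Colored points are the 10 polarity genes, the grey line is the median and the grey band the quartiles of all genes tested, in 15 bins of equal size. In the Vangl1/2 panel the median climbs from -0.40 in the shortest bin to 0.50 in the longest, with Crb3 near the low end and Pard3 near the high end.

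Without control replicate 2 of the Vangl1/2 experiment, 5 of the 10 genes passed the adjusted threshold of limma, as did 43.2% of all genes. *Dlg1* was higher in mutants by 0.35 (adjusted p = 0.0017), *Pard3* by 0.34 (adjusted p = 0.0036), *Mpp5* by 0.30 (adjusted p = 0.024) and *Prkci* by 0.25 (adjusted p = 0.020), and *Crb3* was lower (-0.52, adjusted p = 0.0064). *Crb3* moved the other way, to -0.18 (adjusted p = 0.689), without control replicate 1, its highest library, and *Dlg1* to 0.15 (adjusted p = 0.663). Without control replicate 2, the 2 controls that remained were those with slopes below 0 on length. Leaving out any other Vangl1/2 library gave 0 of 10. With all 18 libraries sharing 1 estimate of the spread, *Pard3* (adjusted p = 0.022) and *Mpp5* (adjusted p = 0.043) passed, as did 23.1% of all genes, at unchanged fold changes.

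**Figure D5:**
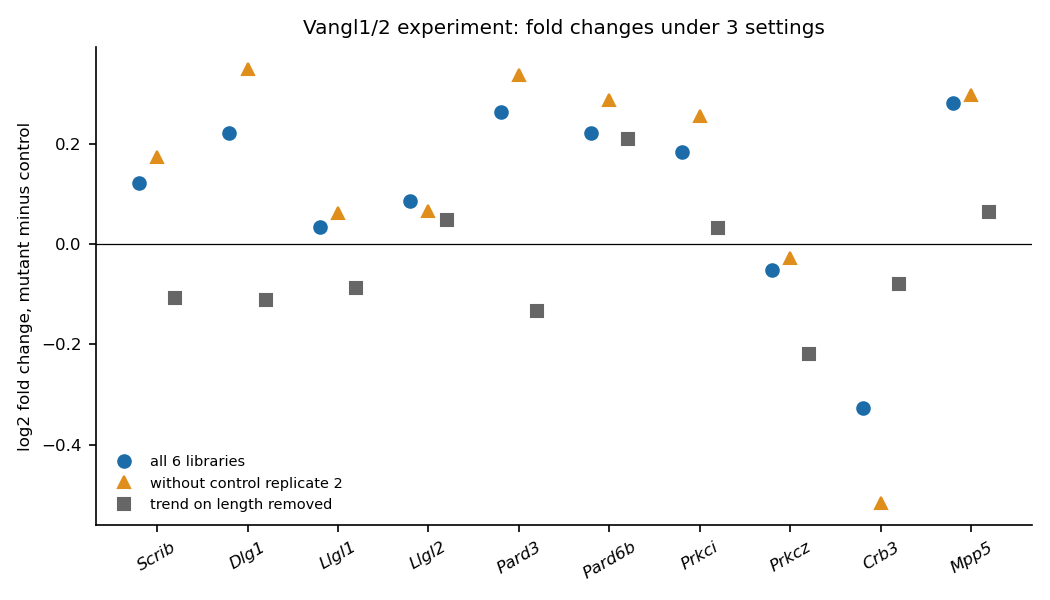
Log2 fold change of each polarity gene in the Vangl1/2 experiment with all 6 libraries (circles), without control replicate 2 (triangles) and with the trend of each library on exon length removed (squares). All genes but Llgl2 and Prkcz lie farther from 0 without control replicate 2. Once the length trend is removed, Scrib, Dlg1, Llgl1 and Pard3 turn from above to below 0, and Prkcz (-0.22) and Crb3 (-0.081) stay below 0.

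In the Dermo1Cre experiment the 10 fold changes lay between -0.14 for *Crb3* and 0.13 for *Mpp5*, and no gene had groups without overlap, where 7.65% of all genes had them with the mutant higher and 7.92% with the mutant lower. *Mpp5* counts were 1123, 1037 and 1086 in controls and 1242, 1104 and 1211 in mutants, so that mutants 1 and 3 were above all controls (log2 fold change 0.13, SE 0.058, 95% interval 0.00074 to 0.26, adjusted p = 0.490). *Crb3* counts were 225, 233 and 196 in controls and 183, 201 and 211 in mutants (-0.14, SE 0.10, adjusted p = 0.676). The Par genes had fold changes between -0.060 and 0.0091, with overlapping groups. *Pard3* had 1732, 1816 and 1807 in controls and 1749, 1782 and 1730 in mutants, and its interval was the narrowest of the 10 (-0.025, 95% interval -0.12 to 0.067). *Prkci* had 2519, 2306 and 2177 against 2454, 2273 and 2311 (0.0091, adjusted p = 0.967). *Prkcz* had 193, 189 and 180 against 193, 177 and 171 (-0.060, adjusted p = 0.855), and *Pard6b* 342, 337 and 329 against 307, 309 and 383 (-0.021, adjusted p = 0.954), with 1 mutant above all controls and the other 2 below them.

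Among Scribble genes of the Dermo1Cre experiment, *Dlg1* stood highest. It had 2016, 1883 and 1960 in controls and 2244, 2068 and 1961 in mutants (0.097, SE 0.055, adjusted p = 0.573). *Scrib* had 2056, 1963 and 1773 against 1839, 1754 and 1901 (-0.074, SE 0.060, adjusted p = 0.695), and *Llgl1* 2255, 2256 and 2045 against 2127, 2178 and 2271 (0.0053, adjusted p = 0.978). *Llgl2* was tightly grouped in the controls at 421, 417 and 415 and spread in the mutants at 332, 397 and 429 (-0.12, SE 0.094, adjusted p = 0.686). Without mutant replicate 2, whose *Wnt5a* lay in the control range, again 0 of the 10 passed, and *Mpp5* stood at 0.18 (adjusted p = 0.247). Leaving out any other library of this experiment put *Mpp5* between 0.096 and 0.16. With each library's trend on exon length removed, it stood at 0.075 (adjusted p = 0.790).

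The epithelial markers moved beside these values, although none passed the adjusted threshold. All 12 had a fold change below 0 in the Dermo1Cre mutants, 6 at an unadjusted p under 0.05 against 4.76% of all genes, and their summed counts were 16049 to 16933 in controls and 14894 to 15072 in mutants. This was not particular to the epithelium. Of 10 mesenchymal markers 9 lay below 0, 3 at an unadjusted p under 0.05, with sums of 98432 to 110220 in controls and 89371 to 97196 in mutants. All 6 endothelial markers lay below 0 as well, whereas all 6 neuronal markers lay above 0. Expressed relative to the mean of the 12 epithelial markers in the same library, the median of the 10 polarity genes was 0.12, beside 0.14 over all genes. All 10 lay above 0, on a scale that lower markers raise for every gene, and the share of all genes above 0 was not counted. *Mpp5* at 0.27 and *Dlg1* at 0.24 then passed the adjusted threshold, each with an adjusted p of 0.0212, as did 18.6% of all genes.

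In the Sox9Cre experiment all 10 fold changes lay between -0.091 and 0.036, with overlapping groups and adjusted p-values of 0.9999. Groups did not overlap for 4.42% of all genes with the mutant higher and 4.36% with the mutant lower. *Scrib* stood highest, with 1887, 1942 and 1980 counts in controls and 1988, 1946 and 2022 in mutants (log2 fold change 0.036, 95% interval -0.071 to 0.14). *Pard6b* stood lowest, with 399, 360 and 390 against 382, 360 and 338 (-0.091, 95% interval -0.27 to 0.092). *Crb3* differed by 0.0047 on the log2 scale, with 208, 208 and 199 in controls and 220, 189 and 209 in mutants. Its 95% interval was -0.21 to 0.22.

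The Sox9Cre mutants differed among themselves more than the controls did for *Prkci* and *Mpp5*. *Prkci* had 2276, 2249 and 2369 in controls and 1968, 2180 and 2669 in mutants (-0.027, SE 0.10), and *Mpp5* had 1022, 1022 and 1074 in controls and 883, 972 and 1199 in mutants (-0.042, SE 0.10). For both genes mutant 1 was lowest and mutant 3 highest. The slope on exon length had the same order, -0.063, -0.010 and 0.062 in mutants 1, 2 and 3, and its part in these values was not tested. *Dlg1* had 2019, 2043 and 2081 in controls and 1964, 2083 and 2203 in mutants (0.023), and *Pard3* 1794, 1882 and 1913 against 1702, 1861 and 1913 (-0.031). *Llgl1* had 2283, 2452 and 2237 against 2330, 2446 and 2317 (0.026), *Llgl2* 395, 418 and 422 against 407, 391 and 373 (-0.077), and *Prkcz* 202, 175 and 172 against 179, 150 and 197 (-0.068).

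The fold changes of the 3 experiments were then compared directly, as differences between within-experiment changes in 1 limma fit of all 18 libraries. None of the 10 genes passed the adjusted threshold in any of the 3 pairs of experiments, where limma called 0.0143%, 0.0143% and 0% of all genes tested. *Pard3* had the smallest unadjusted p. Its change was higher in the Vangl1/2 than in the Dermo1Cre experiment by 0.29 (SE 0.096, unadjusted p = 0.0080, adjusted p = 0.252) and higher than in the Sox9Cre experiment by 0.29 (SE 0.096, unadjusted p = 0.0070, adjusted p = 0.157). Against the Sox9Cre experiment, *Mpp5* differed by 0.32 (unadjusted p = 0.0278, adjusted p = 0.167) and *Pard6b* by 0.31 (unadjusted p = 0.0453, adjusted p = 0.192). An unadjusted p under 0.05 was found for 17.3% of all genes between the Vangl1/2 and Dermo1Cre experiments, 25.1% between Vangl1/2 and Sox9Cre, and 2.63% between Dermo1Cre and Sox9Cre, where no polarity gene reached it. These differences moved with the length trend. Once it was removed, 6 of the 10 differences between the Vangl1/2 and Dermo1Cre experiments and 5 of those between Vangl1/2 and Sox9Cre turned in sign, and none passed the adjusted threshold. That of *Pard3* became -0.020 (adjusted p = 0.969) against the Dermo1Cre and -0.15 (adjusted p = 0.539) against the Sox9Cre experiment. Against the Sox9Cre experiment, *Mpp5* then differed by 0.078 (adjusted p = 0.820) and *Pard6b* by 0.28 (adjusted p = 0.409). Without Vangl1/2 control replicate 2, 3 of the 10 differed from the Dermo1Cre and 4 from the Sox9Cre experiment at the adjusted threshold, where 32.8% and 39.3% of all genes did. These were *Scrib* (0.25), *Dlg1* (0.25) and *Pard3* (0.36) against the Dermo1Cre experiment, and *Dlg1* (0.33), *Pard3* (0.37), *Pard6b* (0.38) and *Crb3* (-0.52) against the Sox9Cre experiment. With all libraries and the length trend removed, the values were 0.020 for *Scrib* and -0.13 for *Dlg1* against the Dermo1Cre experiment, and -0.17 for *Dlg1* and -0.11 for *Crb3* against the Sox9Cre experiment.

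A further 30 genes of the polarity machinery were read in the same way, and 28 were tested in each experiment. None passed the adjusted threshold. Before adjustment, 7 were higher and none lower in Vangl1/2 mutants (unadjusted p under 0.05), beside 12% of all genes higher and 8.56% lower, and the median log2 fold change was 0.20. This list had a median of 5065 exon bases. Its smallest p-values were those of *Erbb2ip*, a relative of *Scrib* with leucine-rich repeats and a PDZ domain, with 3501 ± 728 counts in controls and 4839 ± 270 in mutants (log2 fold change 0.49, SE 0.15, 6598 exon bases), and of *Wwc1*, also known as Kibra, with 755 ± 36.3 and 920 ± 23.2 (0.29, SE 0.091, 4531 exon bases). Both had an adjusted p of 0.233 and groups without overlap, as was true with the mutant higher for 13.6% of all genes (SD, n = 3). In the Dermo1Cre experiment, *Lin7a*, a partner of *Mpp5*, was the only one higher before adjustment, at 808 ± 29.8 and 946 ± 98.9 (0.22, SE 0.076, adjusted p = 0.408), and *Stk11*, the Lkb1 kinase, the only one lower, at 1316 ± 48.3 and 1191 ± 25.4 (-0.14, SE 0.047, adjusted p = 0.378). Among all genes tested in this experiment, 5.42% were higher and 4.76% lower before adjustment. All 6 neuronal markers were higher before adjustment in the same mutants, with sums of 466 to 770 in controls and 937 to 1924 in mutants, and their part in the *Lin7a* value was not tested. In the Sox9Cre experiment, *Crb2* stood at 196 ± 15.5 and 154 ± 24.02 (-0.35, SE 0.13, unadjusted p = 0.026, adjusted p = 0.9999), and *Amotl2* at 1337 ± 72.3 and 1241 ± 24.8 (-0.11, SE 0.057, adjusted p = 0.9999). All 6 cardiomyocyte markers were lower before adjustment in those mutants, beside 2.81% of all genes, with sums of 4833 to 17381 in controls and 801 to 5227 in mutants. Of 4 mesothelial markers 3 were lower before adjustment, with sums of 2650 to 3247 in controls and 2068 to 2621 in mutants. All 6 neuronal markers lay below 0. The part of these cell types in the *Crb2* value was not tested.

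Among 23 genes of adherens and tight junctions, 7 were higher and 1 lower before adjustment in the Vangl1/2 experiment, beside 12% of all genes higher and 8.56% lower, and none passed the adjusted threshold. *Ctnnd1*, which encodes the cadherin partner p120-catenin, had 5253 ± 459 counts in controls and 6680 ± 77.6 in mutants (log2 fold change 0.35, SE 0.096, adjusted p = 0.233). *Mllt4*, which encodes afadin, had 3365 ± 569 and 4425 ± 318 (0.41, SE 0.13, adjusted p = 0.233). These genes had 6433 and 7903 exon bases. The 1 lower gene, *Cldn7*, named after its value was seen, had 1477 (-0.33, SE 0.13, adjusted p = 0.235). The other higher genes are not listed here, and the part of exon length in these values was not tested. Of the junction genes in the Dermo1Cre experiment, 5 were lower and none higher before adjustment, with 4.76% of all genes lower. *Jup*, which encodes plakoglobin, had 1598, 1630 and 1694 in controls and 1365, 1459 and 1480 in mutants, without overlap (-0.19, SE 0.048, adjusted p = 0.271), as was true with the mutant lower for 7.92% of all genes. *Cgnl1*, which encodes paracingulin, had 1757 ± 78.4 and 1522 ± 115 (-0.21, SE 0.060, adjusted p = 0.328). The epithelial markers given above, like most mesenchymal and all endothelial markers, lay below 0 in the same mutants. The part of cell types in these values was not tested. In the Sox9Cre experiment none of the 23 passed before adjustment, and the smallest p-values were those of *Jup* (-0.11) and *Magi1* (-0.10).

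*Snai1*, *Snai2*, *Zeb1*, *Zeb2* and *Twist1* are transcription factors that repress epithelial genes through CAGGTG E-boxes or related E-boxes, and *Crb3* is a known target of this group. In the Vangl1/2 experiment 2 of the 5 lay above 0, *Zeb2* and *Zeb1*, which also had the smallest p-values. The other 3 lay below 0, the lowest at -0.77, and the median log2 fold change of the 5 was -0.031. *Zeb2* had 3322, 4780 and 3551 counts in controls and 5053, 4975 and 5634 in mutants (log2 fold change 0.44, SE 0.14, adjusted p = 0.233), and *Zeb1* had 716, 1081 and 678 against 1024, 1153 and 1092 (0.43, SE 0.17, adjusted p = 0.235). Control replicate 2 was the highest control for both and the lowest for *Crb3*, and it was the only control with a slope above 0 on exon length. With the length trend removed, *Crb3* stood at -0.081 (adjusted p = 0.869). A link of *Crb3* to these repressors was not tested. The summed counts of the 10 mesenchymal markers stood at 79259, 116960 and 66081 in these controls and 90440, 110440 and 100730 in the mutants, with control replicate 2 the highest of the 6. Of these markers 2 were higher and 1 lower before adjustment, beside 12% and 8.56% of all genes, and their part in the *Zeb1* and *Zeb2* values was not tested. Exon lengths were 11443 bases for *Zeb2* and 5801 for *Zeb1*, and 1621 for *Snai1*, 2021 for *Snai2* and 1628 for *Twist1*. In the Dermo1Cre experiment the smallest p-values were those of *Snai1* (-0.11, adjusted p = 0.597) and *Snai2* (0.085, adjusted p = 0.629), and in the Sox9Cre experiment those of *Zeb1* (-0.11) and *Twist1* (-0.53, SE 0.54). No repressor passed before adjustment in either *Wnt5a* experiment.

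Both strands of RefSeq promoter windows (GRCm38.p6, 250 bases before to 50 bases after a start) were searched for CAGGTG, which reads CACCTG on the other strand, and 20.2% of 32851 windows held at least 1 match. Of the 10 genes, 7 were matched to 14 windows, some of which overlapped, and 7 of these windows held a match. *Crb3*, *Dlg1*, *Pard3*, *Pard6b* and *Prkcz* had a match in at least 1 of their windows. Genes with several windows had more places for a match, and the share of all genes with a match in any window was not counted. *Crb3* had 4 matches in each of its overlapping windows, as did 0.0548% of all windows. Relative to the first *Crb3* start, their first bases lay at -118, -63, -7 and 26. *Pard6b* had 2, at -141 and -86, and 2.88% of windows had at least 2. The windows of *Prkci* and *Llgl1* held none. Stretches before a RefSeq start of *Crb3* and of *Pard6b* are printed because these were the genes with a match in every window. The *Crb3* windows lie inside the annotated gene, which begins at base 57059105. The last 10 printed bases of *Crb3* belong to an annotated untranslated region from base 57062141 on, and the second marked match crosses into it. Capitals mark CACCTG and CAGGTG (the first 2 of the 4 in *Crb3* and both in *Pard6b*), the *Crb3* stretch is chr17:57061951-57062150 and the *Pard6b* stretch chr2:168080754-168081003, both on the plus strand. A match describes the letters only, and binding was not measured.
Crb3: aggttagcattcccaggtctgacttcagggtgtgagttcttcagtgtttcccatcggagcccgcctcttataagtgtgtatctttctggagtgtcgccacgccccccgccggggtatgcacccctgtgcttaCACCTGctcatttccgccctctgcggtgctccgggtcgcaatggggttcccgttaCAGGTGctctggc
Pard6b: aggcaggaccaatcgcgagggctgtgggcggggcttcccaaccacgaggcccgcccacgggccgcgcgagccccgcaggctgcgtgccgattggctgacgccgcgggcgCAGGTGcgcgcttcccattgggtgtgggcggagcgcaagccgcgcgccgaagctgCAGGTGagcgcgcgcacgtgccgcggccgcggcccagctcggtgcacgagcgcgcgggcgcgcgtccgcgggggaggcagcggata

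The genes whose pattern was most like that of *Crb3* and *Scrib* were found by Pearson correlation of log2 values, centered within the 6 groups, over 18 libraries and 13980 genes tested in all experiments. These are descriptions of libraries that also share depth and length trends, and the genes were picked for the highest values. For *Crb3* they were *Cldn3*, a tight junction claudin, with r = 0.92, *Prpsap1* with r = 0.91 and *H2-D1* with r = 0.90. Without the 6 Vangl1/2 libraries these values were 0.75, 0.80 and 0.90, and 3 other genes ranked highest, *Mrps17* (0.97), *Mon1a* (0.94) and *Nubp1* (0.94). *Cldn3* had 994, 635 and 944 normalized counts in Vangl1/2 controls and 691, 654 and 728 in mutants, with control replicate 2 the lowest of the 6, and its exons, 1259 bases, were short like those of *Crb3*. For *Scrib* they were *Ube2o* and *Git2*, each with r = 0.91, and *Sbf1* with r = 0.89, and 0.82, 0.81 and 0.81 without the Vangl1/2 libraries, where *Trim36* (0.94), *Gdf11* (0.93) and *Mcmbp* (0.92) ranked highest instead. Thus no gene of either leading set of 3 was kept.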

How the data were processed

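The study extracted RNA from whole embryonic lungs and sequenced it on Illumina instruments. The submitters' processing notes name Trim Galore, HISAT2, featureCounts, DESeq2 and the mm10 build, with no versions. The authors deposited, for each experiment, a signal per gene and library, namely read counts divided by a size factor, here called normalized counts. Columns with the authors' mean, log2 fold changes and p-values of their own comparison were not used. Whole reads were recovered for 100% of values in 18 libraries (tolerance 0.01 reads), with 15945393 to 19814346 reads on genes.

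limma (version 3.58.1, R 4.3.3) was fitted to log2(normalized count + 1) with a mean-variance trend, within each experiment, on genes at 10 or more in at least 3 of 6 libraries, with Benjamini-Hochberg adjustment over all genes tested. Fold changes are on this scale. Alternatives were edgeR (4.0.16, quasi-likelihood, TMM) and DESeq2 (1.42.0) on recovered reads, TMM scaling, other filters and pseudocounts, all 18 libraries in 1 fit, a replicate block, removal of each library's trend on exon length, values relative to epithelial markers, and each library left out in turn. The fit was tested on simulated counts. Lengths came from GENCODE M21 (GRCm38), which matched 98.3% of names, and promoters from RefSeq (GRCm38.p6). Libraries of 1 group differed by more than sampling noise, so none was counted as a duplicate.

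The 10 genes and all lists were chosen with earlier results of these data known. All 10 were named with their values. From the lists of other polarity genes, junction genes and epithelial repressors, the 2 genes with the smallest unadjusted p per experiment were named, plus any past the adjusted threshold, and *Cldn7* was added after its value was seen. The 3 targeted genes and, for *Crb3* and *Scrib*, the 3 best-correlated genes, with and without the Vangl1/2 libraries, were also named. Marker lists were given by sums and counts. The search for E-boxes was chosen after the values were known.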

Additional observations from a re-analysis of the deposited data

How the results depend on the processing

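Between the settings tried, the count of polarity genes past the adjusted threshold changed in 2 of 3 experiments. In the Vangl1/2 experiment it was 0 in the fit reported, 2 with all 18 libraries in 1 fit, and 0 to 5 when each library was left out in turn, with 5 reached only without control replicate 2. Over all genes, 23.1% passed with all 18 libraries in 1 fit and 43.2% without control replicate 2. In the Dermo1Cre experiment the count of polarity genes was 0, and 2 relative to epithelial markers, where 18.6% of all genes passed. Once the length trend was removed, the median log2 fold change of the 10 genes went from 0.15 to -0.085 in the Vangl1/2 experiment. It went from -0.023 to -0.068 in the Dermo1Cre and from -0.029 to 0.014 in the Sox9Cre experiment. Relative to epithelial markers it went to 0.12 in the Dermo1Cre experiment, beside 0.14 over all genes. For the difference between experiments, leaving out 1 library gave 0 to 3 genes between Vangl1/2 and Dermo1Cre and 0 to 4 between Vangl1/2 and Sox9Cre, the higher count again without Vangl1/2 control replicate 2, when 32.8% and 39.3% of all genes passed. With the length trend removed, the *Pard3* difference of 0.29 became -0.020 against the Dermo1Cre and -0.15 against the Sox9Cre experiment, and that of *Dlg1* went from 0.12 to -0.13 and from 0.20 to -0.17, none past the threshold. Apart from the construction of each setting, the cause was not tested. With edgeR, DESeq2, TMM scaling, the other filters or the other pseudocounts, the count stayed at 0 in all 3 experiments and no fold change of the 10 genes changed sign. Over all genes, DESeq2 called 11 in the Vangl1/2, 101 in the Dermo1Cre and 9 in the Sox9Cre experiment, where limma called 1, 2 and 0.

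Controls and mutants share replicate numbers, and the correlations of deviations between same-numbered libraries ran from -0.22 to 0.30. In no experiment did every library correlate best with its own number, although replicate 1 did in the Vangl1/2 and Sox9Cre experiments. With 3 libraries per group these values cannot show whether the libraries were paired. With the replicate block, 0 polarity genes passed in each experiment, and 0, 16 and 0 genes overall. Leaving out single libraries turned the sign of up to 4 of the 10 fold changes in the Sox9Cre, 2 in the Dermo1Cre and 1 in the Vangl1/2 experiment, all of them values that did not pass. None of these values shows that a gene did not change.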
